A study of Mus musculus with 12 samples.

Results

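Mouse testis libraries labelled as preleptotene spermatocytes (plpSC) were compared with libraries labelled as primitive type A spermatogonia (priSG-A) across all genes measured. The markers did not all go with the plpSC label: Stra8 lay lower in plpSC than in priSG-A, and most markers of pachytene cells and round spermatids lay higher. The groups are therefore called by their labels. The plpSC group held 2 libraries from mice at 17 days postpartum (dpp) and the priSG-A group held 2 libraries from mice at 7 dpp. These were 4 of the 12 libraries of the series, and they were taken by their labels. Pachytene spermatocytes (pacSC, 17 dpp) and round spermatids (60 dpp), with 2 libraries each, serve as later stages for description. All mice were males, F1 animals of DBA/2 and C57BL6. Freshly isolated cells were separated by STAPUT, a sedimentation method that sorts cells by size, and total RNA was extracted with Trizol and sequenced. The labels do not say that the libraries came from separate animals or pools, so the p-values measure the spread between these libraries, which may be technical. Stage and age differ together and cannot be told apart. The deposited unit was FPKM, a fragment density scaled by transcript length and library size. A gene was tested if 2 or more of these 4 libraries gave it 1 FPKM or more, and 13406 of 22552 gene symbols passed (59.4%). A gene below 1 FPKM in both libraries of a group could pass only through the other group. The filter fixed the direction of such a gene.

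Type A spermatogonia are the mitotic germ cells at the base of the seminiferous tubule, where they sit against Sertoli cells. Retinoic acid induces Stra8, and the cells then become preleptotene spermatocytes, carry out the last round of DNA replication and enter the long prophase of meiosis. Leptotene, zygotene and pachytene cells follow, in which Spo11 cuts DNA, homologous chromosomes pair along the synaptonemal complex and the sex chromosomes fall silent. Round spermatids come after the meiotic divisions and build the acrosome and the flagellum. Testis germ cells also switch on many relatives of housekeeping genes, often autosomal copies of X-linked genes.

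The genes that mark the 2 stages were read first. Zbtb16, a transcription factor that keeps spermatogonia undifferentiated, had 1.46 and 2.57 FPKM in plpSC and 16.5 and 13.8 FPKM in priSG-A, and fell (log2 change of -2.44, SE 0.31, limma adjusted p = 0.00432). Spo11, the meiotic DNA-cutting enzyme, had 12.7 and 9.47 FPKM in plpSC and 0.903 and 0.715 FPKM in priSG-A, and rose (log2 change of 2.73, SE 0.28, adjusted p = 0.00398). Both priSG-A values of Spo11 lay below 1 FPKM, so the filter fixed its direction. Stra8, the gene that drives meiotic entry, did not pass the test and lay lower in plpSC. It had 43.9 and 100.4 FPKM in plpSC and 165.9 and 145.2 FPKM in priSG-A (log2 change of -1.21, SE 0.42, adjusted p = 0.0521). Its adjusted p lay between 0.00153 and 0.197 over the alternatives that kept all 4 libraries. Every alternative kept the lower value in plpSC. Dmc1, a strand-exchange protein of meiotic recombination, had 9.92 and 30.2 FPKM in plpSC and 6.70 and 10.5 FPKM in priSG-A (adjusted p = 0.173). Prdm9, which marks the sites of meiotic breaks, had 4.75 and 14.2 FPKM in plpSC and 2.88 and 4.62 FPKM in priSG-A (adjusted p = 0.148). For both genes plpSC replicate 1 lay below the higher priSG-A library or close to it, and plpSC replicate 2 lay above both priSG-A libraries.

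**Figure D1:**
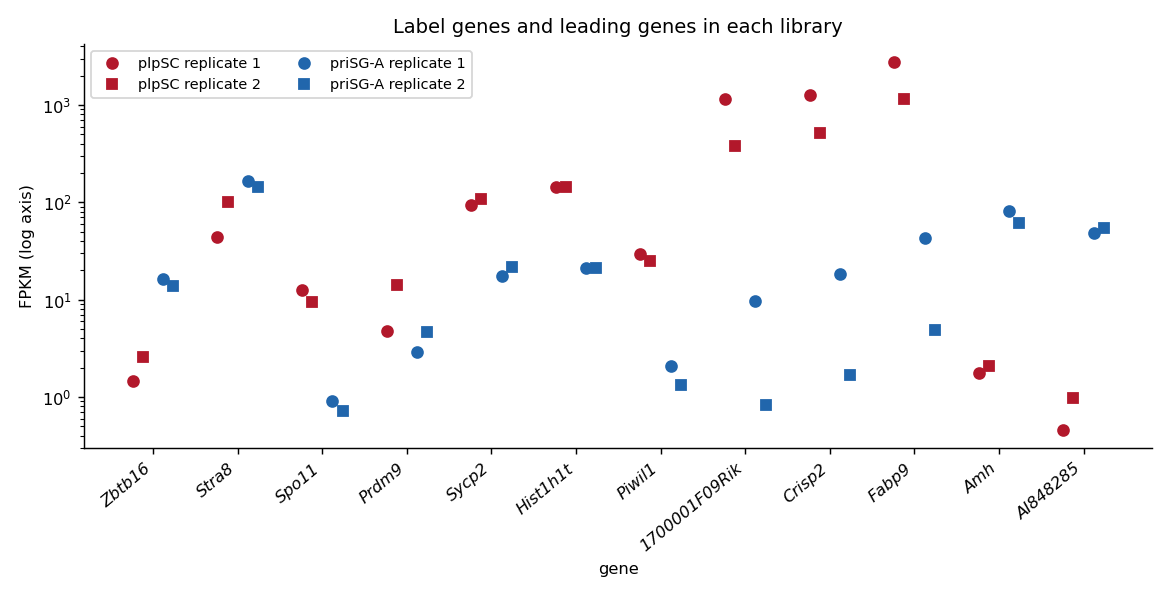
FPKM of 12 genes on a log axis in each of the 4 libraries, with plpSC in red and priSG-A in blue, and replicate 1 as circles and replicate 2 as squares. Spo11 lies higher and Zbtb16 lower in both plpSC libraries, Stra8 lies lower in both, and the plpSC libraries lie far apart for Prdm9 and Crisp2 but nearly coincide for Hist1h1t.

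Markers of several cell types moved together with the comparison. All 12 spermatogonial markers fell, and their summed level was 59.9 and 103.6 FPKM in plpSC, against 491.9 and 446.1 FPKM in priSG-A. Of 20 tested markers of meiotic entry and early prophase, 12 rose and none fell, with sums of 2447 and 2054 FPKM in plpSC and 697 and 732 FPKM in priSG-A. Of 16 pachytene markers 15 rose, with sums of 4964 and 2481 FPKM in plpSC and 838.5 and 673.9 FPKM in priSG-A. Of 20 round spermatid markers 17 rose. The round spermatid sum was 3090 and 1216 FPKM in plpSC, against 190.9 and 41.4 FPKM in priSG-A. Of 19 Sertoli cell markers 18 fell, with sums of 404.8 and 568.9 FPKM in plpSC and 3251 and 3315 FPKM in priSG-A. The 14 peritubular and stromal markers included 8 that rose, with sums of 194.9 and 644.7 FPKM in plpSC and 37.3 and 97.9 FPKM in priSG-A. All 5 tested erythroid markers rose, with sums of 224 and 441 FPKM in plpSC and 12.3 and 10.2 FPKM in priSG-A. None of the 10 tested macrophage markers was called. Of 8 tested Leydig cell markers 1 rose and 5 fell, with sums of 112.6 and 106.8 FPKM in plpSC and 303.9 and 241.7 FPKM in priSG-A. Of 7 endothelial markers 3 fell, with sums of 12.8 and 20.2 FPKM in plpSC and 28.8 and 33.5 FPKM in priSG-A. Among all tested genes 21.4% rose and 35.7% fell, and the share of falls among the endothelial markers lay near that. In none of these lists was a gene at 0 in all 4 libraries. Catsper1, Spaca3, Aym1 and Hba-a2 lay below 1 FPKM in both priSG-A libraries, and Gdnf and Fshr in both plpSC libraries. The filter fixed the direction of such markers. In bulk samples, fewer cells of a type and less RNA per cell cannot be told apart, and the part of other cell types in the results below was not tested.

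**Figure D2:**
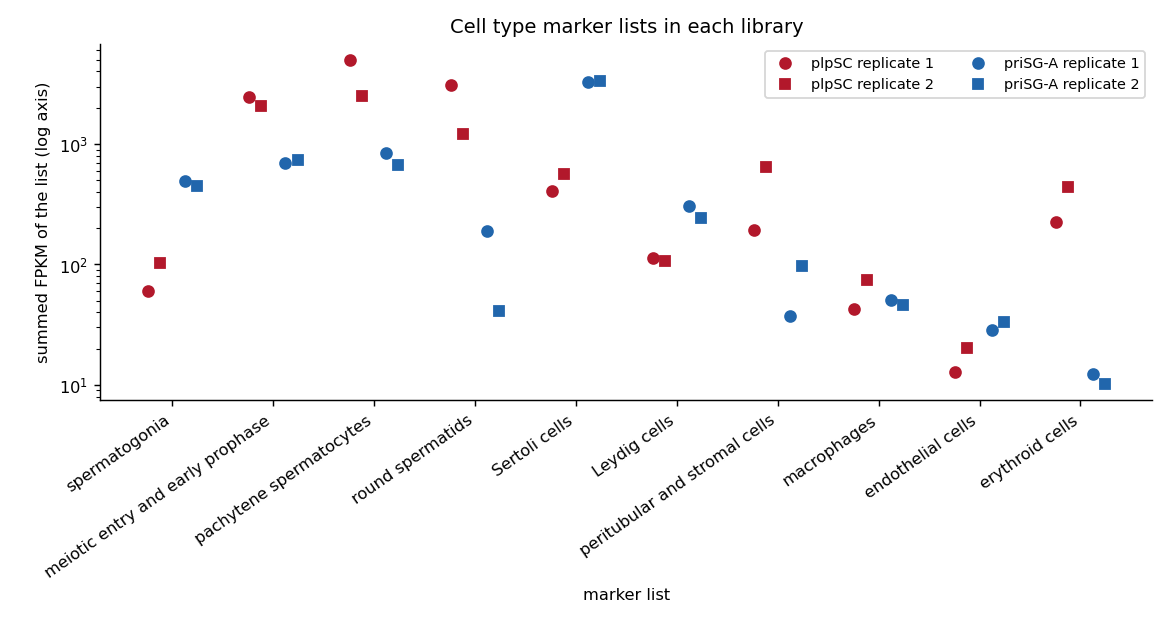
Summed FPKM, on a log axis, of 10 cell type marker lists in each library, with plpSC in red and priSG-A in blue, and replicate 1 as circles and replicate 2 as squares. Sertoli and spermatogonial sums are lower in both plpSC libraries, germ cell sums of later stages are higher, and the peritubular and erythroid sums are highest in plpSC replicate 2.

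The change was wide. At an adjusted p under 0.05, 2864 of 13406 genes rose in plpSC (21.4%) and 4787 fell (35.7%), so 57.1% of all tested genes were called. A change of at least 2-fold was called for 6365 genes (47.5%). A stricter description asked that the nearest libraries of both groups stood at least 1 log2 unit apart. By it 2130 genes (15.9%) were higher in both plpSC libraries and 2375 (17.7%) were lower in both, and all of these were also called. The median change of all tested genes was -0.43 on the log2 scale, so members of a family are read against that value. With library factors from a trimmed mean of log ratios the median was -0.05, with 3347 genes higher and 2887 lower, so the split between rises and falls turned on the scaling. Leaving out priSG-A replicate 1 left 1915 rises and 1130 falls, and leaving out priSG-A replicate 2 left 1879 rises and 1258 falls. Without plpSC replicate 2 there were 4097 rises and 7252 falls. The libraries differed in small RNAs: Rpph1, Rmrp and Rprl3 together made up 7.64% and 19.1% of the FPKM sum in plpSC and 18.4% and 22.2% in priSG-A. Recovered depth lay between 25391163 and 34923958 fragments.

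The testis clone 1700001F09Rik had the largest rise among the 15 genes named for their size of change. The gene 1700001F09Rik (chromosome 14, 44020917 to 44026344, build mm9) had 1152 and 377.5 FPKM in plpSC, against 9.80 and 0.827 FPKM in priSG-A (log2 change of 7.22, SE 0.94, adjusted p = 0.00441). Crisp2, a protein of the sperm acrosome and tail, had 1258 and 515.4 FPKM in plpSC, against 18.4 and 1.69 FPKM in priSG-A (log2 change of 6.80, SE 0.97). Fabp9, a fatty acid-binding protein of the sperm head, had 2742 and 1165 FPKM in plpSC, against 43.1 and 4.91 FPKM in priSG-A (log2 change of 6.79, SE 0.97). In each of these genes plpSC replicate 1 was more than 2 times replicate 2, and priSG-A replicate 1 was also far above replicate 2. Cmtm2b and Cmtm2a, neighbours on chromosome 8 that encode MARVEL-domain membrane proteins, had log2 changes of 7.06 and 6.97. The other genes among the 15 largest rises were Gm3925, Pdcl2, Hrasls5, 4922502D21Rik, Fbp1, Gm10058, 1700123L14Rik, Fhl4, Spata4 and Actl7b, with log2 changes of 6.60 to 6.90. Fbp1 encodes the gluconeogenic enzyme fructose-1,6-bisphosphatase and Actl7b an actin-like protein of the sperm head. Crisp2 and Actl7b also stand in the round spermatid marker list, whose sum was higher in the same libraries. They are part of that sum, so it is not separate from their rise. In plpSC the sum was 3090 and 1216 FPKM, with 1258 and 515.4 from Crisp2 and 540.2 and 174.9 from Actl7b. The part of round spermatids was not tested.

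A Sertoli cell hormone gene and a steroid enzyme gene were among the largest falls. Amh, the Sertoli cell hormone that removes the Müllerian duct in male embryos, had 1.75 and 2.11 FPKM in plpSC, against 81.7 and 61.1 FPKM in priSG-A (log2 change of -4.61, SE 0.27, adjusted p = 0.00398). AI848285 (chromosome 15) had 0.459 and 0.983 FPKM in plpSC, against 48.2 and 55.1 FPKM in priSG-A (log2 change of -4.95, SE 0.29). Hsd17b3, the enzyme of the last step of testosterone synthesis, had 1.13 and 1.51 FPKM in plpSC, against 45.4 and 29.6 FPKM in priSG-A. All 3 genes were more than 15 times lower in both plpSC libraries, and the Sertoli marker sum, which includes Amh, was lower there as well. The small nucleolar RNA Snora7a had the greatest fitted fall, with 0 and 43.8 FPKM in plpSC and 197.3 and 317.8 FPKM in priSG-A (log2 change of -5.23, SE 1.68, adjusted p = 0.0429). Its call was lost under 8 alternatives, with adjusted p up to 0.140. Its log2 change was -2.49 without plpSC replicate 1 and -7.97 without plpSC replicate 2. The other 11 of the 15 largest falls were Sel1l3, Kazald1, Bcan, Pdlim4, Scx, Bex2, AU015836, Gm53, Aard, Hist1h1b and Socs2, with log2 changes of -4.61 to -3.68. Scx encodes the tendon transcription factor scleraxis, Bcan the matrix proteoglycan brevican, and Socs2 an inhibitor of cytokine signalling. AI848285, Sel1l3 and Bcan lay below 1 FPKM in both plpSC libraries, so the filter fixed their direction.

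Axonemal dyneins, tektins and CatSper subunits, families of the sperm flagellum, held rises and no falls. All 12 tested axonemal dyneins rose, with a median log2 change of 3.52. Dnahc8, a heavy chain of the motor that bends the flagellum, had 242.6 and 130.1 FPKM in plpSC, against 6.57 and 5.02 FPKM in priSG-A (log2 change of 4.73, SE 0.36, adjusted p = 0.00398). All 5 tektins, filament proteins inside the axonemal microtubules, rose with a median of 5.84. Tekt1 had 399.1 and 149.8 FPKM in plpSC, against 5.28 and 1.39 FPKM in priSG-A. All 7 subunits of CatSper, the calcium channel of the sperm tail, rose with a median of 3.89. Catsper2 had 101 and 45.4 FPKM in plpSC, against 2.32 and 1.60 FPKM in priSG-A. Of 6 testis-specific serine kinases 5 rose, and of 13 genes with IQ motifs 12 rose. Of 12 tubulin tyrosine ligase-like enzymes, which add amino acids to tubulin tails, 10 rose and 1 fell. That one was Ttll12, with 2.40 and 3.95 FPKM in plpSC and 17.5 and 15.5 FPKM in priSG-A. Of 132 coiled-coil domain genes, grouped by name only, 64 rose and 18 fell, with a median of 0.79. Other families linked to the flagellum did not share this direction: 4 of 22 tubulins rose and 11 fell, and 4 of 15 A-kinase anchors rose and 6 fell. These counts stand beside the 21.4% of all tested genes that rose and the 35.7% that fell. Of 15 listed axonemal dyneins 12 were tested, and of 144 listed coiled-coil domain genes 132. Members below 1 FPKM in both priSG-A libraries, such as Catsper1 and Catsper3, entered only through plpSC, so the filter fixed their direction.

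**Figure D3:**
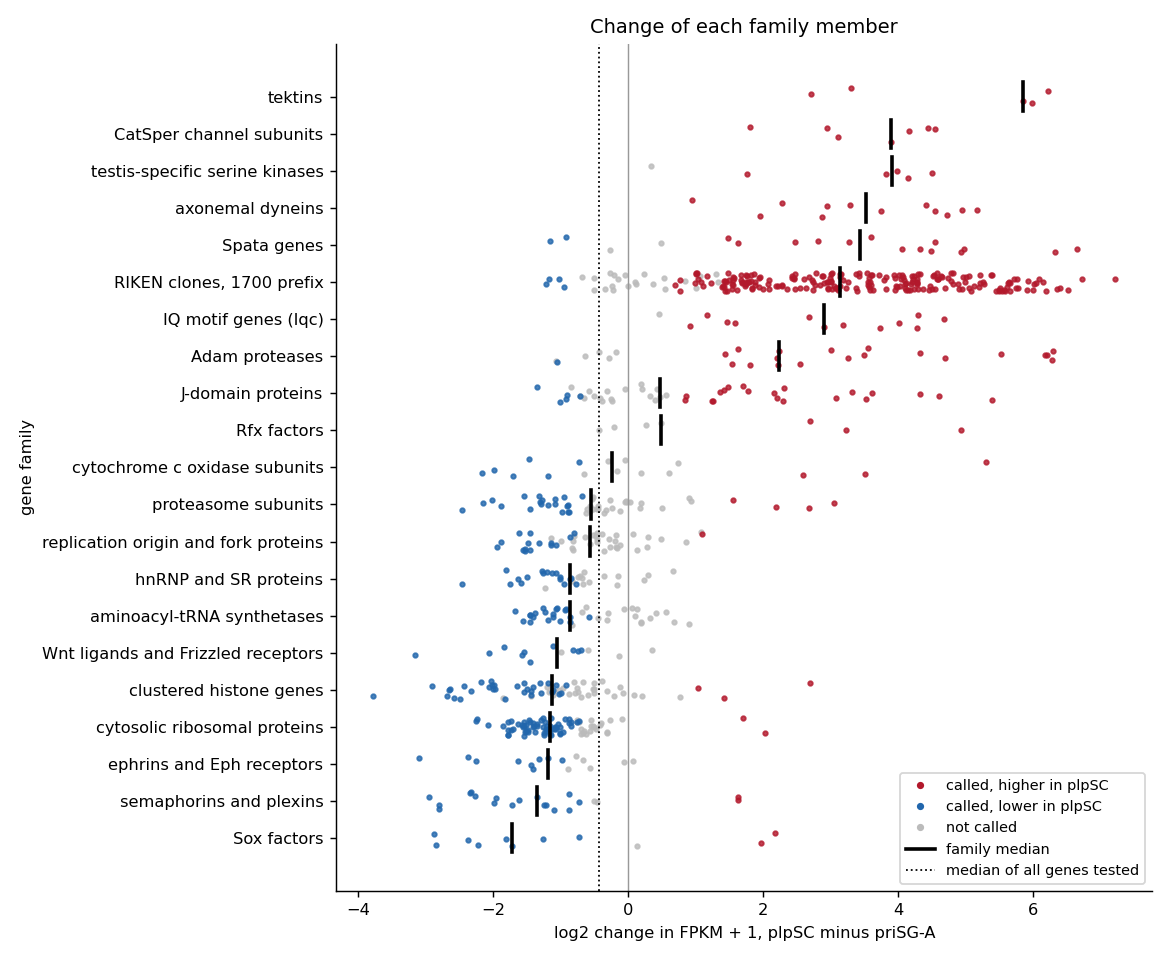
Log2 change of every tested member of 21 gene families, with called rises in red, called falls in blue and genes not called in grey. Black bars mark family medians, which run from 5.84 for the tektins down to -1.72 for the Sox factors, and the dotted line marks the median of all tested genes at -0.43.

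Most tested Adam and Prss proteases rose as well, beside 21.4% of all tested genes that rose and 35.7% that fell. Of 32 listed Adam genes 25 were tested, and of 37 listed Prss genes 19. Any member below 1 FPKM in both priSG-A libraries could enter only through plpSC, so the filter fixed its direction. Of 25 Adam proteases 19 rose and 1 fell, with a median of 2.24. Adam3, a sperm surface protein needed for passage into the oviduct, had 357.1 and 139.9 FPKM in plpSC, against 5.01 and 0.355 FPKM in priSG-A (log2 change of 6.30, SE 0.80, adjusted p = 0.00429). The one member that fell was Adam17, the widely expressed enzyme that sheds tumour necrosis factor, with 7.14 and 12.5 FPKM in plpSC and 22.0 and 19.4 FPKM in priSG-A. Of 19 Prss serine proteases 15 rose and 4 fell. Prss39 had 83.9 and 32.9 FPKM in plpSC, against 1.11 and 0.0943 FPKM in priSG-A, whereas Prss35 had 19.9 and 27.6 FPKM in plpSC, against 121.8 and 109.5 FPKM in priSG-A. Of 18 Spata genes, named for their link to spermatogenesis, 14 rose and 2 fell. Spata16, a protein of the forming acrosome, had 358.3 and 130.5 FPKM in plpSC, against 4.33 and 0.393 FPKM in priSG-A.

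Genes known only by clone names were counted by the prefix of the name, beside 21.4% of all tested genes that rose. Many RIKEN cDNA clones whose names begin with 1700 or 49 were isolated from testis. Of the 241 tested 1700 clones 215 rose and 4 fell, with a median of 3.14, and their summed level was 16633 and 6730 FPKM in plpSC, against 748.7 and 572.9 FPKM in priSG-A. Of 266 tested clones of the 49 prefix 218 rose and 10 fell, with a median of 2.26. The remaining RIKEN clones did not share that direction: of 625 tested, 117 rose and 213 fell, with a median of -0.42 that lay next to the median of all genes. Of 311 predicted genes 173 rose and 64 fell, with a median of 1.40. Gm10058, on the X chromosome, had 617.5 and 206.6 FPKM in plpSC, against 10.2 and 0.000212 FPKM in priSG-A. Predicted genes can share reads with near-identical copies, so the level of a single one is uncertain. Of the listed genes, 241 of 305 with the 1700 prefix, 266 of 406 with the 49 prefix and 311 of 964 predicted genes were tested. Those below 1 FPKM in both priSG-A libraries were tested only where both plpSC libraries were higher, so the filter fixed their direction.

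The plpSC libraries did not weigh on the rises equally. Of the 2864 genes that rose, 2688 were higher in replicate 1 than in replicate 2, and 2359 of them by at least 0.5 log2 units. The median difference between the replicates was 1.00 log2 unit for the rises, -0.44 for the falls and -0.16 for all tested genes. It was 1.41 among the tektins that rose, 1.63 among the testis-specific serine kinases and 1.29 among the Adam proteases. It was 0.52 among the cytochrome c oxidase subunits that rose. Across tested genes, plpSC replicate 1 correlated with the pacSC libraries at Pearson's r of 0.936 and 0.943 and with plpSC replicate 2 at 0.935. Replicate 2 correlated with the pacSC libraries at 0.886 and 0.866. With the round spermatid libraries the values were 0.931 and 0.918 for plpSC replicate 1 and 0.804 and 0.779 for plpSC replicate 2. With the priSG-A libraries the values were 0.505 and 0.441 for plpSC replicate 1 and 0.694 and 0.646 for plpSC replicate 2. These are values across genes of single libraries and carry no test.

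Of the genes that rose, 217 had plpSC values within 0.3 log2 units of each other. Hist1h1t, the linker histone of spermatocytes, had 144.1 and 144.9 FPKM in plpSC, against 21.4 and 21.4 FPKM in priSG-A (log2 change of 2.70, SE 0.21, adjusted p = 0.00398). Piwil1, which binds the piRNAs of pachytene cells, had 29.7 and 25.1 FPKM in plpSC, against 2.10 and 1.32 FPKM in priSG-A (log2 change of 3.40, SE 0.29). Sycp2, a protein of the synaptonemal complex, had 95 and 109.1 FPKM in plpSC, against 17.4 and 21.5 FPKM in priSG-A (log2 change of 2.34, SE 0.24). These genes were chosen for plpSC values that lie close together. Mtl5, a DNA-binding protein of spermatocytes, had 66.6 and 58.3 FPKM in plpSC, against 2.45 and 2.95 FPKM in priSG-A. Ccdc79, which tethers meiotic telomeres to the nuclear envelope, had 18 and 17.6 FPKM in plpSC, against 1.95 and 2.77 FPKM in priSG-A. Others among the 12 strongest genes of this kind were Gm10487, 1700006A11Rik, Hsd3b6, Ly6k, Gm3893 and 4932415G12Rik, with log2 changes of 2.13 to 5.26. Hsd3b6 is a steroid dehydrogenase of adult Leydig cells, and it had 14.1 and 11.96 FPKM in plpSC, against 0.226 and 0.0123 FPKM in priSG-A. With both priSG-A values below 1 FPKM, its direction was fixed by the filter.

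The levels of these evenly rising genes at later stages are given as a description, with no test. In 101 of the 217 (46.5%) both pacSC libraries lay above both plpSC libraries, against 379 of the 2359 genes (16.1%) with the higher value in plpSC replicate 1 and 20.2% of all genes that rose. In 111 of the 217 (51.2%) both round spermatid libraries lay below both plpSC libraries, against 13 of the 2359 (0.551%) and 8.42% of all genes that rose. Lying above or below both plpSC libraries is easier for genes whose plpSC values are close, so the way the classes were formed bears on these shares. Piwil1 had 103.5 and 108.4 FPKM in pacSC and 19.6 and 14.9 FPKM in round spermatids. 1700001F09Rik, by comparison, had 167.7 and 148.6 FPKM in pacSC and 949.1 and 1236 FPKM in round spermatids.

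Another kind of rise had its higher value in plpSC replicate 2. In 69 of the genes that rose, replicate 2 exceeded replicate 1 by at least 0.5 log2 units. Haemoglobin genes led them. Hba-a1 had 188.6 and 377.9 FPKM in plpSC, against 10.01 and 8.30 FPKM in priSG-A (log2 change of 4.73, SE 0.38, adjusted p = 0.00398). Beta-s had 209.3 and 391.7 FPKM in plpSC, against 7.69 and 6.91 FPKM in priSG-A (log2 change of 5.12, SE 0.35). The alpha and beta globin genes have near-identical neighbours, so the level of each copy is uncertain. Matrix and muscle genes followed. Dcn, the proteoglycan decorin, had 44.1 and 98.8 FPKM in plpSC, against 4.78 and 10.2 FPKM in priSG-A. Mgp, a matrix protein that binds calcium, had 32.1 and 86.2 FPKM in plpSC, against 3.34 and 8.27 FPKM in priSG-A. Myh11, smooth muscle myosin, had 9.02 and 51.5 FPKM in plpSC, against 1.27 and 4.96 FPKM in priSG-A (adjusted p = 0.0464). In these matrix and muscle genes priSG-A replicate 2 was also the higher of its pair. In 55 of the 69 genes (79.7%) both pacSC libraries lay below both plpSC libraries, against 275 of all 2864 genes that rose (9.60%). The erythroid and the peritubular marker sums were both highest in plpSC replicate 2. Hba-a1 is itself part of the erythroid sum, at 377.9 of 441 FPKM in that library. Dcn and Myh11 are part of the peritubular sum. Of 26 collagen genes 6 rose, near the 21.4% of all tested genes, and 3 fell, against 35.7%. The collagen rises had the lowest median difference between plpSC replicates among the families with at least 3 rises (-0.38). Still, 3 of the 6 were higher in replicate 1, and the differences ran from -1.55 to 1.04. Tex101, a germ cell surface protein that is no stromal marker, was also higher in replicate 2, with 143.5 and 274.8 FPKM in plpSC and 50.1 and 59.1 FPKM in priSG-A.

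**Figure D4:**
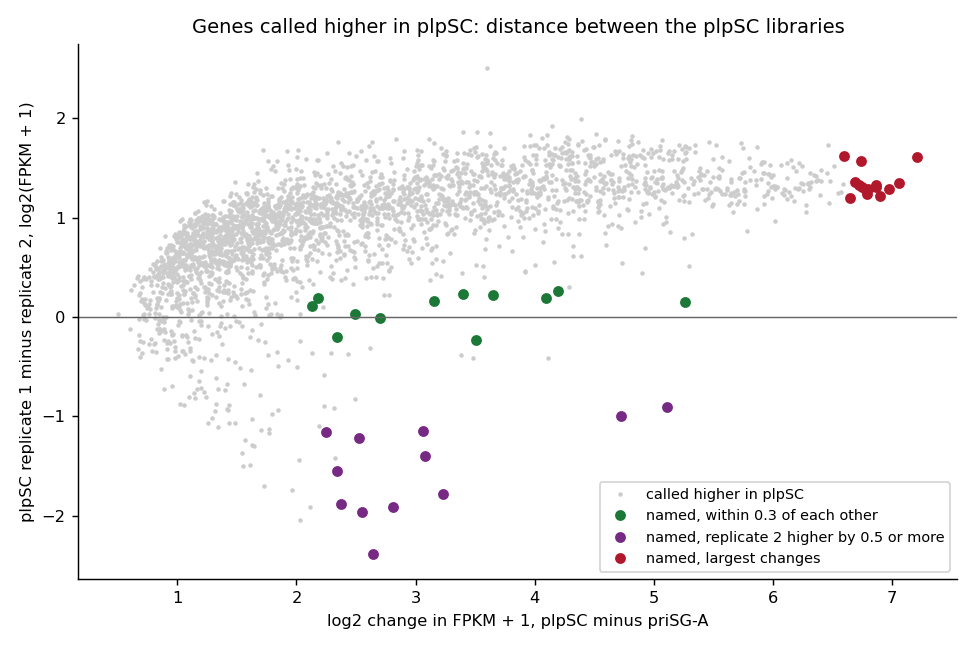
Each of the 2864 genes called higher in plpSC, with its log2 change against priSG-A on the horizontal axis and the difference between plpSC replicate 1 and replicate 2 in log2(FPKM + 1) on the vertical axis. The largest changes (red) lie above 1, the 12 named even rises (green) lie near 0, and the haemoglobin, matrix and muscle genes (purple) lie below -0.5.

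Families of transcription factors differed in direction. Of 7 Rfx factors 3 rose and none fell. Rfx2, which drives genes of the flagellum and of spermatid development, had 19.1 and 12.6 FPKM in plpSC, against 0.871 and 0.674 FPKM in priSG-A (log2 change of 3.23, SE 0.31, adjusted p = 0.00398). Rfx8 had 85.2 and 31.7 FPKM in plpSC, against 0.919 and 0.582 FPKM in priSG-A, and Rfx4 also rose. Foxj1, which switches on motile cilium genes, had 44.1 and 12.9 FPKM in plpSC, against 0.610 and 0.433 FPKM in priSG-A. Crem and Tcfl5 lay outside the families and are named after their values were seen. Crem, an activator of spermatid genes that binds cyclic AMP response elements, had 122.7 and 50.3 FPKM in plpSC, against 4.74 and 3.70 FPKM in priSG-A (log2 change of 3.94, SE 0.45, adjusted p = 0.00404). Tcfl5, a factor of spermatocytes and spermatids, had 141.8 and 72.7 FPKM in plpSC, against 23.8 and 21.2 FPKM in priSG-A. Mybl1, the Myb factor of pachytene cells, had 25.7 and 20.7 FPKM in plpSC, against 5.25 and 4.44 FPKM in priSG-A. The Sox family split. Sox5 and Sox30, known from spermatids, rose, and 8 of the 11 tested members fell, among them Sox8 and Sox9 of Sertoli cells. Sox30 had 6.65 and 4.05 FPKM in plpSC, against 0.665 and 0.510 FPKM in priSG-A, whereas Sox9 had 0.723 and 1.98 FPKM in plpSC, against 10.3 and 11.2 FPKM in priSG-A. None of 15 Ets factors rose and 10 fell, and of 318 zinc finger (Zfp) genes 31 rose and 144 fell. Among all tested genes 21.4% rose and 35.7% fell, a split that turned on the scaling. Rfx2, Rfx8, Foxj1 and Sox30 lay below 1 FPKM in both priSG-A libraries, so the filter fixed their direction.

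Promoter sequences of 6 rising genes are shown because they carry the element that Rfx factors bind (the X-box) or the one that Crem binds (the cyclic AMP response element, CRE). The genes were chosen after their values were seen. The sequences come from RefSeq, build GRCm38.p6, and run from 250 bases before to 50 bases after the gene start, 5′ to 3′ on the strand of the gene. The X-box was searched as GTTNCC, any NN, then GGNAAC, and the CRE as TGACGTCA, on both strands. Each window held 1 of the 2 patterns. Capitals mark the match. In all 27025 RefSeq promoters of this length, 0.444% held the X-box pattern and 1.88% held the CRE. Of the tested genes 10661 (79.5%) had a promoter in the table, and shares were not compared between rising and falling genes because under 80% of them matched. A match is a description of the letters and not evidence of binding.
1700010I14Rik, X-box, chr17:8988083-8988382, + strand: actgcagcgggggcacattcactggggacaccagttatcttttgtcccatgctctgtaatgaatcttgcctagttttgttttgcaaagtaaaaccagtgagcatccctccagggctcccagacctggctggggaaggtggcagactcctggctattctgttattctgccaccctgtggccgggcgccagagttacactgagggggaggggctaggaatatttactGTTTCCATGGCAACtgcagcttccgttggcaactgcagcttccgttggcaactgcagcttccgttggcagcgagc
Ttc30a2, X-box, chr2:75978130-75978429, − strand: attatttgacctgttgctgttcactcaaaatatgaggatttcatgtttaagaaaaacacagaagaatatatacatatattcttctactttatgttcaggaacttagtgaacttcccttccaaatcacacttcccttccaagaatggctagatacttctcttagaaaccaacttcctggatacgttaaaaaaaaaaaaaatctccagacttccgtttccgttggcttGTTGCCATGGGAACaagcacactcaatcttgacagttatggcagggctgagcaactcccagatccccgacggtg
Ccdc151, X-box, chr9:22002585-22002884, − strand: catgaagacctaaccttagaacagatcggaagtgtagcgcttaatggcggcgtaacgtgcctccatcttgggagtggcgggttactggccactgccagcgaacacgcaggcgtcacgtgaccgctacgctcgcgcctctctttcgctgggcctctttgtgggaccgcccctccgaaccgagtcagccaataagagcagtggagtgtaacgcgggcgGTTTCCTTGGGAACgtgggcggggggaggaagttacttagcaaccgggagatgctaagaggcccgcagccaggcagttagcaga
Tesk1, CRE, chr4:43442027-43442326, + strand: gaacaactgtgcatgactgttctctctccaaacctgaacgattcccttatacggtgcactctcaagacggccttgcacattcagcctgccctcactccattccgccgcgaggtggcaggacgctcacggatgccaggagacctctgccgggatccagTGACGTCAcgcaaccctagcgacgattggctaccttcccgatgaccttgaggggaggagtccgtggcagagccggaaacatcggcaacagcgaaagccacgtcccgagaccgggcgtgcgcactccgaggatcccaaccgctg
Phospho2, CRE, chr2:69789487-69789786, + strand: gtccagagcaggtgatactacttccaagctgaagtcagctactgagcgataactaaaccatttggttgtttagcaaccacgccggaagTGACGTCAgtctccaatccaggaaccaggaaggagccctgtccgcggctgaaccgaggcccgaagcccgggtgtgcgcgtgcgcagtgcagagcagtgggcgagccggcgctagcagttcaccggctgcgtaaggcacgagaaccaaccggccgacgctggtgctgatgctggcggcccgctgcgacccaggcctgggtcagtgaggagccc
Ldha, CRE, chr7:46845554-46845853, + strand: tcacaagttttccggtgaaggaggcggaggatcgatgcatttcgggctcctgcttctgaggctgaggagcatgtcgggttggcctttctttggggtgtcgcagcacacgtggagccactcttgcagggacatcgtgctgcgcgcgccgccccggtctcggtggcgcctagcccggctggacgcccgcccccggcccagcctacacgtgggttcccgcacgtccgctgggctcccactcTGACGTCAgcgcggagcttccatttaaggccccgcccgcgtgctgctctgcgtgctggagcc

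The genes behind these windows rose strongly. Ttc30a2, which belongs to the transport machinery of cilia, had 153.6 and 61.2 FPKM in plpSC, against 2.49 and 1.14 FPKM in priSG-A (log2 change of 5.17). Ccdc151, which docks dynein arms on the axoneme, had 60.2 and 26.0 FPKM in plpSC, against 0.965 and 0.534 FPKM in priSG-A (log2 change of 4.55). Its priSG-A values both lay below 1 FPKM, so the filter fixed its direction. 1700010I14Rik had 364 and 151.6 FPKM in plpSC, against 4.77 and 0.942 FPKM in priSG-A. Tesk1, a kinase known from testis, had 173.7 and 65.8 FPKM in plpSC, against 8.20 and 5.64 FPKM in priSG-A. The window of Phospho2 overlaps that of 4930578N16Rik on the opposite strand, so the same CRE lies in both. Phospho2 had 333.7 and 142.2 FPKM in plpSC, against 14.6 and 10.7 FPKM in priSG-A (log2 change of 4.02). 4930578N16Rik had 164.9 and 63.1 FPKM in plpSC, against 4.35 and 3.07 FPKM in priSG-A (log2 change of 4.46). No strand was stated for the libraries, so reads that overlap both genes could not be assigned to one of them.

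Forms of 1 protein were set side by side in 18 pairs, each with a form listed as enriched in testis and a broadly expressed relative. The listed testis forms included Slc2a3 and Eif4g3, and their enrichment in testis was not measured here. The list was drawn up after results were known, so its counts describe these pairs only. The testis form rose in 17 and the broad form fell in 15. Both happened together in 15 pairs. Cytochrome c oxidase, the last enzyme of the respiratory chain, showed it for 3 subunits. Cox8c had 109 and 75.9 FPKM in plpSC, against 1.96 and 0.842 FPKM in priSG-A (log2 change of 5.30, SE 0.35, adjusted p = 0.00398). Cox8a had 25.6 and 32.7 FPKM in plpSC, against 135.1 and 130.9 FPKM in priSG-A (log2 change of -2.16, SE 0.24, adjusted p = 0.00398). Cox8c thus made up 81.0% and 69.9% of the summed FPKM of the pair in plpSC, against 1.43% and 0.639% in priSG-A. Cox6b2 made up 65.4% and 48.5% of its pair with Cox6b1 in plpSC, against 3.68% and 2.37% in priSG-A. For Cox7b2 with Cox7b the shares were 96.7% and 92.0% in plpSC, against 43.4% and 38.9% in priSG-A. Over all 16 tested subunits 3 rose, the testis forms named here, and 6 fell. Both shares lay near those of all tested genes (21.4% and 35.7%).

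The proteasome, the ribosome and the cell cycle engine each held such a pair. Psma8, the alpha subunit of the germ cell proteasome, had 84.9 and 52.0 FPKM in plpSC, against 7.64 and 6.67 FPKM in priSG-A (log2 change of 3.05, SE 0.31, adjusted p = 0.00398). Psma7 had 34.8 and 52.2 FPKM in plpSC, against 175.2 and 175.3 FPKM in priSG-A. Psme4, the activator linked to histone breakdown in spermatids, rose with a log2 change of 2.20, and the immune-type activators Psme1 and Psme2 fell with log2 changes of -2.15 and -2.46. The name pattern for proteasome subunits also took in Psmc3ip, a recombination protein and not a subunit, which had 243.1 and 117.3 FPKM in plpSC, against 27.7 and 23.4 FPKM in priSG-A. Rpl10l had 214.2 and 101.7 FPKM in plpSC, against 35.3 and 35.4 FPKM in priSG-A (log2 change of 2.03, SE 0.39, adjusted p = 0.00967). Its X-linked relative Rpl10 had 59.1 and 122.7 FPKM in plpSC, against 242.4 and 266 FPKM in priSG-A, and its call was lost under 5 alternatives (adjusted p up to 0.125). Rpl10l and Rpl39l were the only members that rose among 83 cytosolic ribosomal protein genes, of which 61 fell. Among all tested genes 21.4% rose and 35.7% fell. Ccna1, the cyclin needed for the meiotic divisions of spermatocytes, had 176.7 and 66.7 FPKM in plpSC, against 3.19 and 1.71 FPKM in priSG-A. Ccna2, the cyclin A of dividing somatic cells, had 9.43 and 15.9 FPKM in plpSC, against 52.2 and 51.7 FPKM in priSG-A.

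Glycolytic and chaperone pairs followed the same order with exceptions. Pgk2, the germ cell phosphoglycerate kinase, had 279.2 and 111.4 FPKM in plpSC, against 4.15 and 0.454 FPKM in priSG-A, and Pgk1 had 6.83 and 13.4 FPKM in plpSC, against 27.8 and 24.4 FPKM in priSG-A. Ldhc and Ldha, the testis and muscle forms of lactate dehydrogenase, both rose. Ldha had 525.4 and 222.5 FPKM in plpSC, against 37.3 and 23.4 FPKM in priSG-A (log2 change of 3.49, SE 0.47, adjusted p = 0.00471). Ldhc had 1943 and 803.4 FPKM in plpSC, against 85.0 and 2.13 FPKM in priSG-A, and its call was lost with a spread per group (adjusted p = 0.285), without plpSC replicate 1 (0.107) and without plpSC replicate 2 (0.0642). Hspa2, the HSP70 of spermatocytes, had 913.2 and 403.5 FPKM in plpSC, against 32.2 and 22.4 FPKM in priSG-A, and Hspa8 had 198.6 and 296.3 FPKM in plpSC, against 825 and 768.9 FPKM in priSG-A. For the chaperonin, Cct6b rose with a log2 change of 5.46 while Cct6a was not called (log2 change of -0.64, adjusted p = 0.0506). Cct6a was called lower under 5 alternatives, with adjusted p between 0.00444 and 0.779 over all of them. Cstf2t and Cstf2, forms of a factor that cleaves mRNA ends, were both not called (adjusted p = 0.538 and 0.0790). Tuba3b, an alpha-tubulin of testis with near-identical copies, had 1102 and 628.4 FPKM in plpSC, against 261.4 and 241 FPKM in priSG-A, and Tuba1b had 18.5 and 28.2 FPKM in plpSC, against 154.8 and 133.5 FPKM in priSG-A.

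**Figure D5:**
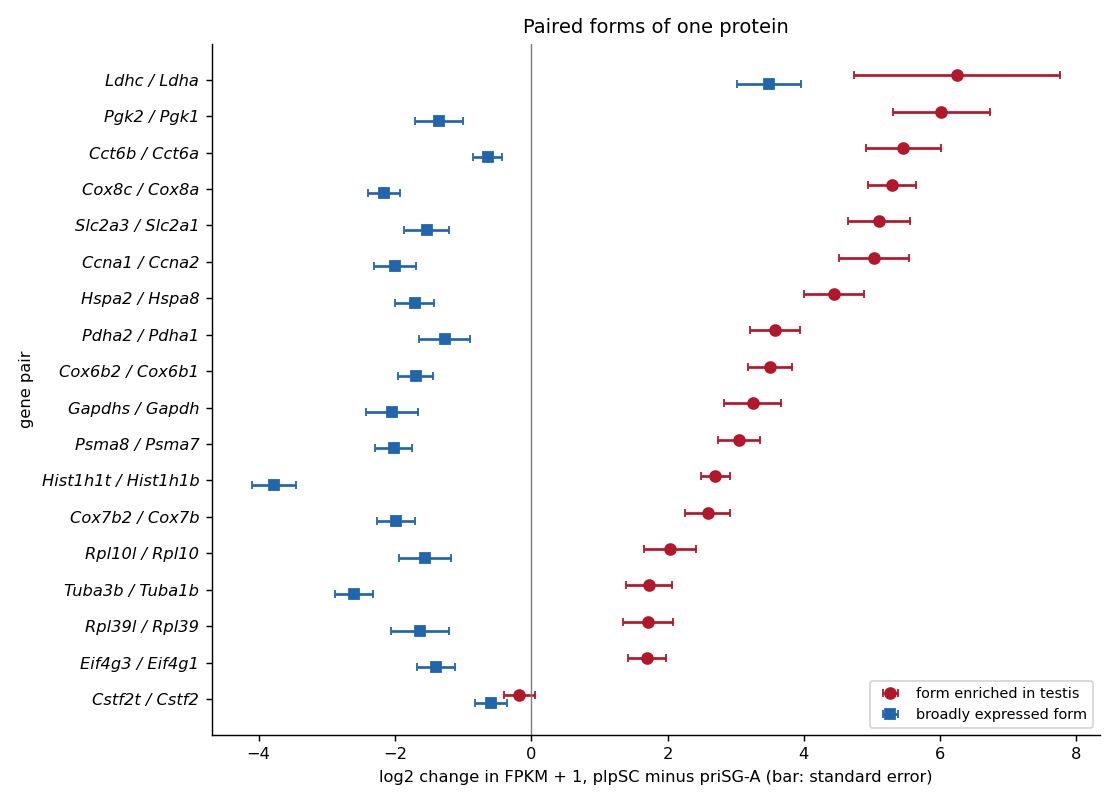
Log2 change of 18 pairs of related genes, with the form listed as enriched in testis as red circles, the broadly expressed form as blue squares and standard errors as bars. In 15 pairs the circle lies above 0 and the square below it with both called, Ldhc and Ldha both lie above 0, and Cstf2t and Cstf2 lie near it.

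Clustered histone genes mostly fell or were not called, and germ cell variants were among the few that rose. Of 65 tested genes in the histone clusters 3 rose and 33 fell, with a median of -1.13. These genes are made during DNA replication and their transcripts mostly lack a poly(A) tail. Hist1h1b had 3.38 and 5.87 FPKM in plpSC, against 83.6 and 65.5 FPKM in priSG-A (log2 change of -3.77, SE 0.32, adjusted p = 0.00398). Hist1h2ba, which encodes the testis variant TH2B, was the most abundant member in plpSC, with 2685 and 5121 FPKM in plpSC and 1045 and 1818 FPKM in priSG-A (log2 change of 1.43, SE 0.47, adjusted p = 0.0474). In both groups replicate 2 was far above replicate 1. The other member that rose was Hist2h2be, with 4.69 and 2.64 FPKM in plpSC and 1.16 and 1.28 FPKM in priSG-A, which is named after its values were seen. Of 45 replication proteins 1 rose and 15 fell, a share of falls near that of all tested genes (35.7%). Mcm2, a subunit of the replicative helicase, had 15.9 and 27.6 FPKM in plpSC, against 84.6 and 75.1 FPKM in priSG-A, and Cdt1, which loads that helicase, fell with a log2 change of -1.94. The one that rose was Rpa1, which coats single-stranded DNA in replication and in recombination, with 153.2 and 78.2 FPKM in plpSC and 52.8 and 48.4 FPKM in priSG-A (adjusted p = 0.0454). Kdm4d, a demethylase of histone H3, had 56.8 and 25.8 FPKM in plpSC, against 0.995 and 0.450 FPKM in priSG-A. Its relative Kdm4a had 7.77 and 7.403 FPKM in plpSC, against 24.6 and 22.4 FPKM in priSG-A. The filter fixed the direction of Kdm4d, which lay below 1 FPKM in both priSG-A libraries.

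Among genes for protein synthesis and RNA processing, falls outnumbered rises. The 83 cytosolic ribosomal protein genes had a median of -1.15 and a summed level of 20836 and 20906 FPKM in plpSC, against 40833 and 40897 FPKM in priSG-A. The plpSC sums differed little although the libraries differed in the rises above. Rps4x, on the X chromosome, had 38.1 and 83.3 FPKM in plpSC, against 279.1 and 267.6 FPKM in priSG-A (log2 change of -2.26, SE 0.40, adjusted p = 0.0081). Processed pseudogenes of ribosomal protein genes can share their reads. Of 37 aminoacyl-tRNA synthetases, which charge tRNAs, 20 fell and none rose, and of 31 hnRNP and SR proteins, which bind and splice pre-mRNA, 17 fell and none rose. Hnrnpa1 had 8.03 and 15.2 FPKM in plpSC, against 73.7 and 58.3 FPKM in priSG-A. These counts stand beside the 35.7% of all tested genes that fell. The medians of these families stayed below 0 under 4 other scalings, the voom fit and the smaller pseudocount, at -0.65 or lower for the ribosomal proteins, -0.43 or lower for the synthetases and -0.35 or lower for the hnRNP and SR proteins.

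Several families of signals between cells and their receptors held more falls than rises, as did all tested genes (35.7% fell and 21.4% rose). Of 8 chemokines and chemokine receptors, however, 2 rose and 1 fell. Of 21 semaphorins and plexins, guidance cues and their receptors, 17 fell and 2 rose, with a median of -1.34. Sema7a had 4.77 and 6.62 FPKM in plpSC, against 46.5 and 43.9 FPKM in priSG-A (log2 change of -2.80, SE 0.26, adjusted p = 0.00398), and its receptor Plxnc1 had 2.03 and 3.66 FPKM in plpSC, against 25.4 and 24.8 FPKM in priSG-A. Of 15 ephrins and Eph receptors 9 fell and none rose. Epha2 had 0.433 and 0.660 FPKM in plpSC, against 13.0 and 11.4 FPKM in priSG-A. Both plpSC values of Epha2 lay below 1 FPKM, so the filter fixed its direction. Of 14 Wnt ligands and Frizzled receptors 10 fell and none rose. Wnt6, which acts between Sertoli cells and spermatogonia, had 3.03 and 4.07 FPKM in plpSC, against 40.7 and 37.9 FPKM in priSG-A. Of 27 TGF-beta family genes 16 fell and 1 rose, and Inhbb, a subunit of inhibin and activin made by Sertoli cells, had 3.51 and 5.17 FPKM in plpSC, against 59.3 and 56.1 FPKM in priSG-A. Of 11 integrins, adhesion receptors, 2 rose and 5 fell. Itga6, the laminin receptor of spermatogonial stem cells, had 2.80 and 4.45 FPKM in plpSC, against 54.6 and 56.2 FPKM in priSG-A. The Sertoli and the spermatogonial marker sums were lower in the same libraries, and several of these genes are made by both cell types. Inhbb is part of the Sertoli sum and Itga6 of the spermatogonial sum.

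Detoxification and turnover families held members of both directions, beside 21.4% of all tested genes that rose and 35.7% that fell. Of 20 glutathione S-transferases 12 fell and 5 rose. Gstm5, the form of testis and brain, had 1833 and 747.5 FPKM in plpSC, against 109.7 and 80.1 FPKM in priSG-A (log2 change of 3.63, SE 0.47, adjusted p = 0.00441). Gstm2 had 44.1 and 71.7 FPKM in plpSC, against 551.4 and 470.1 FPKM in priSG-A. Of 36 TRIM proteins, mostly ubiquitin ligases, 8 rose and 18 fell. Trim69 had 124.1 and 47.2 FPKM in plpSC, against 1.498 and 0.368 FPKM in priSG-A, and Trim71, which holds stem cells back from differentiation, had 1.96 and 2.79 FPKM in plpSC, against 27.4 and 24.2 FPKM in priSG-A. Of 43 J-domain proteins, which bring clients to HSP70, 20 rose and 5 fell. Of 41 kinesins 11 rose and 13 fell, and the family median was negative (-0.27) but turned positive under some scalings (up to 0.27). Kif9, a motor of the flagellum, had 154.8 and 62.1 FPKM in plpSC, against 2.79 and 1.10 FPKM in priSG-A. Kif5b, conventional kinesin, had 13.6 and 27.1 FPKM in plpSC, against 72.7 and 74.3 FPKM in priSG-A.

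Genes of the X chromosome had a lower median change than autosomal genes, which is given as a description, with no test. Of 624 tested X-linked genes 143 rose (22.9%) and 281 fell (45.0%), against 21.3% and 35.3% of autosomal genes. The median change was -0.77 for X-linked and -0.41 for autosomal genes. The X-linked median lay below the autosomal one under all 15 alternatives, by 0.19 log2 units without plpSC replicate 1 and by more in the others. Of the 21 tested Rhox homeobox genes, which lie in one X-linked cluster, 7 rose and 5 fell. Rhox3e and other Rhox3 copies rose, with near-identical sequences that make single values uncertain. Rhox8, a Sertoli cell gene, had 5.03 and 8.55 FPKM in plpSC, against 43.2 and 39.96 FPKM in priSG-A.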

How the data were processed

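Total RNA of 4 libraries was analysed from the files deposited by the authors, which give FPKM per gene with a lower and an upper bound, per the file headers. TopHat2 2.0.6, Cuffdiff, BWA and build mm9 are named in the submitters' processing notes, without the step each served. Strand is not given in the sources used here. Entries sharing a symbol were summed, for 259 symbols with 469 entries beyond the first of each. In the files 25 symbols had become dates, so septins could not be described. Depth is not given as counts and was estimated here by reading the upper bound as 2 SD of a counting error, so it is approximate.

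Values were put on the scale log2(FPKM + 1), which understates the change of low genes, and tested with limma 3.58.1 in R 4.3.3 (2 libraries per group, eBayes with trend, two-sided, Benjamini-Hochberg adjustment over 13406 genes, called at an adjusted p under 0.05). The code was tested on simulated data. Families were defined by patterns in gene symbols, and those with at least 5 tested members are described by counts and medians. The members, gene families and marker lists were chosen with earlier results of these data known. Named genes were, first, the top 15 in each direction by log2 change, if called, moved in both libraries and averaging 20 FPKM or more in the higher group. Added were up to 3 rises and 3 falls per family, the most abundant family members, the markers, and the 12 largest rises with plpSC libraries within 0.3 log2 units or with replicate 2 higher by 0.5, at a mean of at least 10 FPKM. One gene that the rule names is not reported here. Other genes named for promoters or pairs were chosen after their values were seen. Python 3.11.15, numpy 2.4.6, pandas 2.3.3 and matplotlib 3.10.9 served for the rest. Alternatives changed the pseudocount, the filter, the scaling, the test, the libraries in the fit and the replicates. The circular RNA lists of the series were not used here.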

Additional observations from a re-analysis of the deposited data

How the results depend on the processing

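No called gene named by the rule changed direction under the 15 alternatives. Of those not called, 47 changed sign under 1 or more alternatives, and 3 of them were then called. With each library left out in turn, the log2 change of Mrc1 lay between -0.45 and 0.40. That of Ccnb1 lay between -0.70 and 0.29 and that of Pdgfrb between -0.50 and 0.65. The ends came from leaving out the one or the other plpSC library, so the direction turned on which one was kept. Genes higher in plpSC numbered 2864, and between 1879 and 4097 when each library was left out in turn. Genes lower in plpSC numbered 4787, against 2887 with the trimmed mean of log ratios and 2383 with voom on recovered fragments, and between 1130 and 7252 when each library was left out. There were 6365 genes called with at least 2-fold, and between 2993 and 7890 when each library was left out. The median log2 change of tested genes, -0.43, became -0.0507 with the trimmed mean, and genes moved down in both plpSC libraries numbered 1243 with it, against 2375. Over the libraries left out that count lay between 2466 and 4581, the highest without plpSC replicate 2. The cause was not tested. Rises made up 37.4% of called genes, 53.7% with the trimmed mean and 56.9% with voom. Under voom, 14 of the 4787 genes had a positive change. Where a leave-one-out left 1 library in a group, that library was assumed to vary like the other group. Fitted weights, which are lower where libraries vary more, were 4.69 for priSG-A and 0.213 for plpSC. The assumption therefore did not hold, and fits without 1 plpSC library used too small a spread. Low genes are limited by depth.

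The replicate numbers are shared by both groups, with no label saying that they pair the samples. Across tested genes, deviations of same-numbered libraries from their group means correlated at 0.39, with 2 pairs of libraries in all. With a replicate block, 3043 genes were higher and 4791 lower, and the block leaves 1 residual degree of freedom.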
